A study of Homo sapiens with 5 samples.

Results

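Peaks over 10 genes of cellular iron handling were examined in the established human gastric cancer line SNU638. The genes were FTH1 and FTL (iron storage), NCOA4 (ferritin turnover), TFRC, STEAP3 and SLC11A2 (uptake and reduction), SLC40A1 (export), HMOX1 (heme breakdown), and ACO1 and IREB2 (iron sensing). These members were 10 of the 19689 protein-coding genes of GENCODE release 44. They were chosen by function, but with earlier results of these data known. A peak belonged to a member when it touched the gene or the 10 kb to either side of it. By that rule 55 of all 83512 peaks were found, 9 of ACTL6A, 36 of BRG1, 10 of NRF2 and 0 of IgG.

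The data were CUT&Tag peak lists, in which an antibody brings Tn5 transposase, fused to protein A, to its target so that sequencing adapters are inserted in the DNA nearby. The 5 libraries came from SNU638 cells with no treatment named, 1 each with antibodies to ACTL6A, BRG1 or NRF2 and 2 with IgG, named IgG 1 and IgG 2 here. ACTL6A is an actin-related subunit and BRG1 the ATPase of the SWI/SNF chromatin remodelling complex, and NRF2 is the transcription factor of the antioxidant response. No antibody was replicated and no treatment was compared, so no difference could be set against replicate spread and no p-value is given for any. The names of the peaks in the IgG 1 list begin with BRG1_IgG, whereas those of IgG 2 carry no antibody's name before IgG. The identity of the line could not be checked against marker genes, since peak lists hold no expression.

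Cells bring in iron bound to transferrin through the transferrin receptor, reduce it in the endosome, carry it into the cytosol, store the excess inside ferritin shells and export the rest through ferroportin. When iron is low, ferritin is taken to the lysosome and its iron is released, and the iron regulatory proteins bind messenger RNAs of this pathway to set how much receptor and ferritin is made. Free ferrous iron drives the lipid peroxidation of ferroptosis, and genes for ferritin, ferroportin and heme oxygenase are textbook targets of NRF2, which binds the antioxidant response element (ARE) together with a small MAF protein.

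Several measures describe each peak. The fold enrichment is the ratio that the authors' peak caller gave between fragments at the summit, the highest point of the peak, and fragments expected there. The rank orders a list by its q-value, from 1 for the strongest peak, and the rank percent is that rank over the length of the list. The fragments at a summit and the number expected were recovered from the deposited fold enrichment and p-value, and their exact Poisson 95% intervals cover counting error only. Folds and q-values were not compared between lists, since the libraries differ in depth. The lists held 23917 peaks for ACTL6A, 48793 for BRG1, 9045 for NRF2, 11 for IgG 1 and 1746 for IgG 2, with a median of 6, 10 and 17 fragments at a summit in the 3 antibody lists. The lowest number in a called peak was 3 for ACTL6A and BRG1 and 8 for NRF2, so a weaker site was not detectable, and a gene without a peak is not shown to be unbound. Values in brackets give the interval, the fold enrichment and the rank percent.

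All 10 members had a BRG1 peak within 1 kb of an annotated transcription start site (TSS), where 63.5% of all protein-coding genes had one. An NRF2 peak lay at a TSS of 6 members (NCOA4, TFRC, SLC11A2, HMOX1, ACO1 and IREB2), against 28.1% of all genes. An ACTL6A peak lay at a TSS of 4 members (NCOA4, SLC11A2, HMOX1 and IREB2), against 38.5% of all genes. Peaks of all 3 antibodies thus lay at a TSS of 4 of the 10 members, a pattern that 22.1% of all genes had. The peaks need not overlap, and at HMOX1 those of NRF2 and ACTL6A shared no base. TFRC and ACO1 had BRG1 and NRF2 without ACTL6A, as 5.6% of all genes did, and FTH1, FTL, STEAP3 and SLC40A1 had BRG1 alone, as 21.1% did. Of the 5456 genes with both BRG1 and NRF2 at a TSS, 79.8% also had ACTL6A, and among the members 4 of 6 did. IgG 1 and IgG 2 had no peak over any member, and at a TSS they had peaks for 0% and 0.152% of all genes. A gene counted when any of its coding starts had a peak, and the members had from 1 (FTL) to 12 (SLC11A2) start positions. The shares of all genes are not matched for that number. With so few members these shares were not tested, and they describe the 10 genes only.

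**Figure D1:**
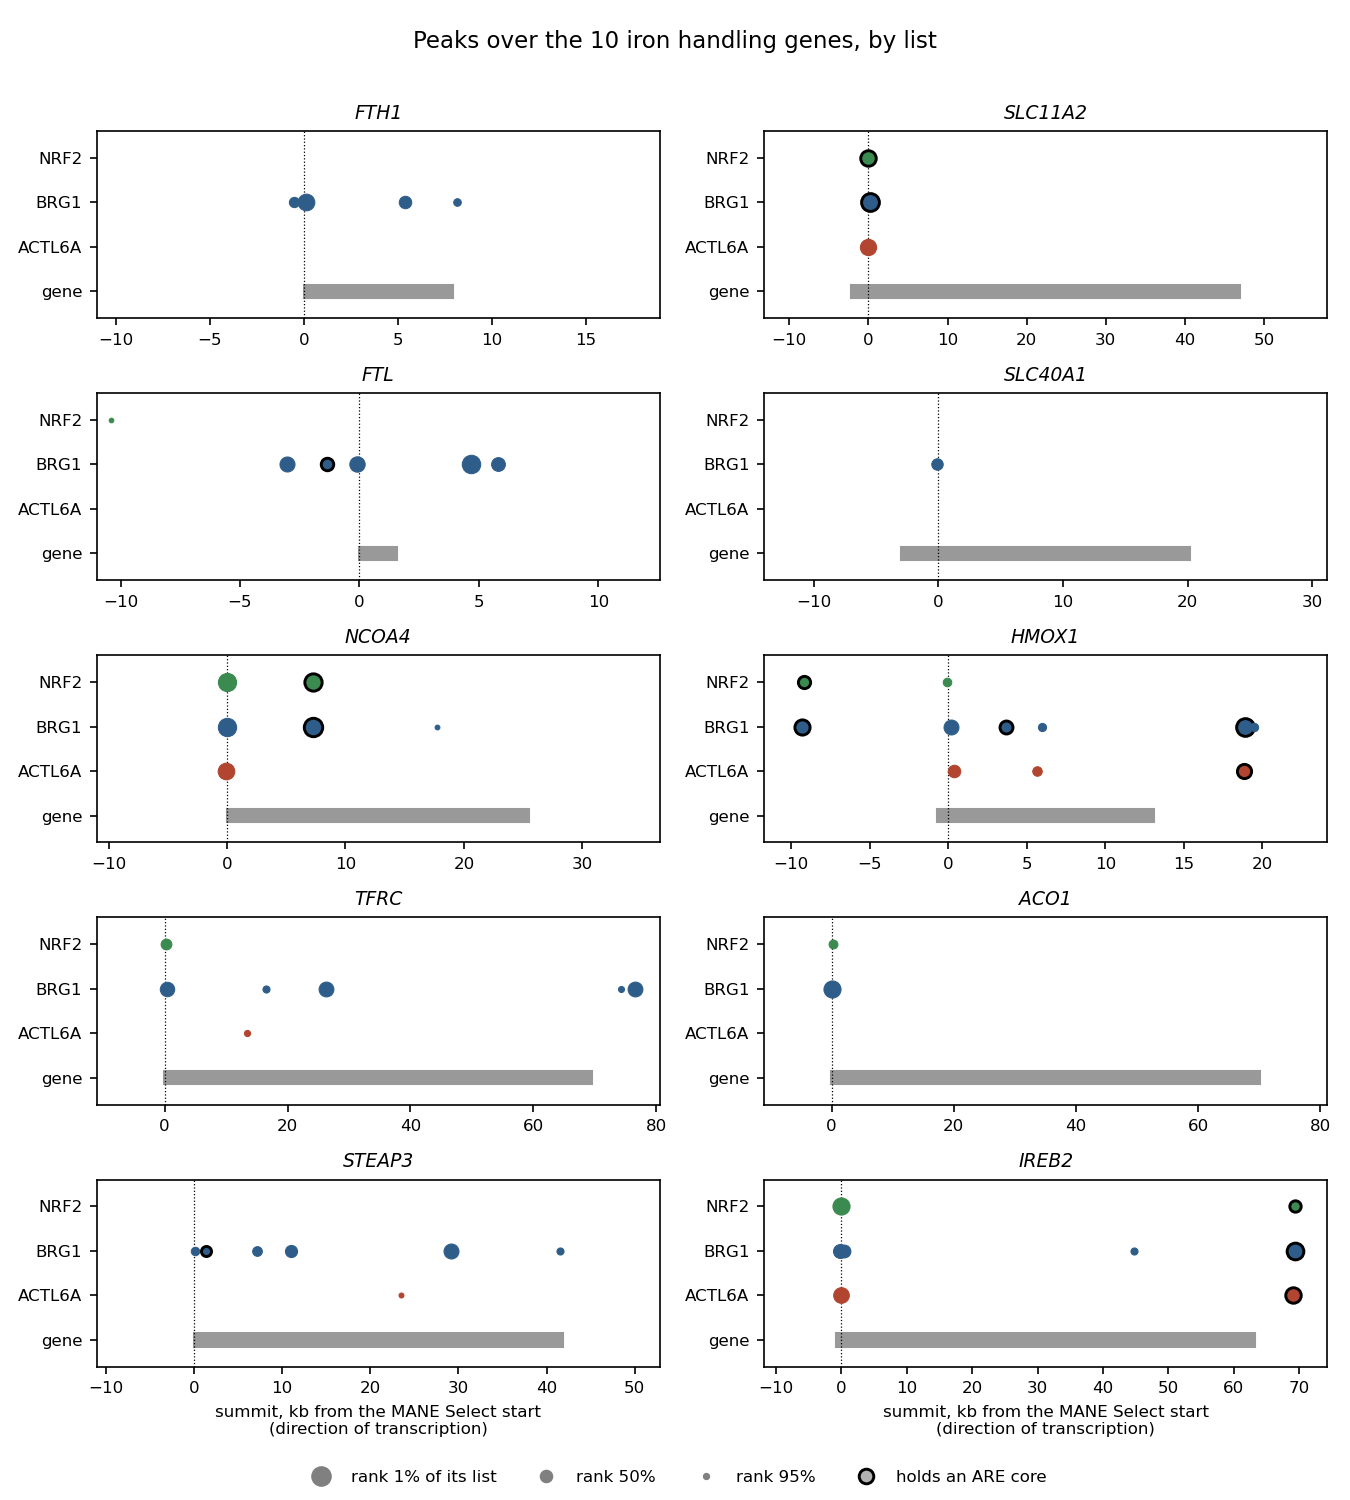
Peaks over each of the 10 members, one panel a gene, with the summit's distance from the start of the MANE Select transcript in kb along the direction of transcription on the x axis and the 3 antibody lists as rows. Larger circles mark stronger ranks within a list, a black rim marks a peak with at least 1 ARE core, and the grey bar is the gene. The BRG1 row is filled at the start of all 10 genes, the ACTL6A row at 4 and the NRF2 row at 6.

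Over the wider region of gene and flanks, BRG1 reached all 10 members, NRF2 reached 7 and ACTL6A reached 6. The same regions held a peak for 82.7% of all genes with BRG1, 41.1% with NRF2, 66.9% with ACTL6A, 0.0356% with IgG 1 and 1.67% with IgG 2. The members that came in were FTL for NRF2 and TFRC and STEAP3 for ACTL6A. A longer gene has a longer region, and the members ran from 1571 bp (FTL) to 70167 bp (ACO1), with a median of 33679 bp beside 27330 bp over all genes.

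The iron storage genes carried BRG1 alone at their starts. FTH1 encodes the heavy ferritin chain, which oxidises ferrous iron, and lies on the minus strand of chromosome 11 (chr11:61959718-61967634, GRCh38). Its 4 peaks were all BRG1. The one at the start covered 662 bp with its summit in the 5′ UTR, had 32 fragments (21.9 to 45.2) where 2.92 were expected, an 8.41-fold enrichment, and ranked 6823 (14.0%). A separate peak of 149 bp lay 543 bp upstream of the MANE Select start with 14 fragments (58.0%). It fell in the body of an unnamed transcript, ENSG00000279491, whose start lay inside the peak at the FTH1 start. The 2 other peaks lay 5401 and 8156 bp downstream of the start, both within the BEST1 gene, and ranked at 43.2% and 76.5%.

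FTL encodes the light ferritin chain, which helps the shell take up mineral, and is the shortest member (chr19:48965309-48966879, plus strand). Its 5 BRG1 peaks spread over both sides of the gene. The peak at its only annotated coding start was 193 bp wide with 38 fragments (26.9 to 52.2) where 7.22 were expected (4.74-fold, 23.2%). The strongest BRG1 peak among all members by rank lay 4653 bp past the FTL start, inside GYS1, the muscle glycogen synthase gene, and 612 bp from the start of one of its transcripts. It had 75 fragments (59.0 to 94.0) where 5.74 were expected, an 11.3-fold enrichment, and ranked 943 (1.93%). A weaker peak followed at 5798 bp (34.1%), and 2 lay upstream at 3018 bp (25.5%) and 1369 bp (43.0%).

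The 200 bases around the summits of 2 FTL peaks are shown because the first holds the letters that NRF2 and its partners bind and the second is the highest-ranked site. Capitals mark the ARE core, searched as TGACNNNGC on both strands, and the second sequence has none. Both are the plus strand of GRCh38, at chr19:48963840-48964039 and chr19:48969862-48970061.
FTL upstream, 1369 bp before the start: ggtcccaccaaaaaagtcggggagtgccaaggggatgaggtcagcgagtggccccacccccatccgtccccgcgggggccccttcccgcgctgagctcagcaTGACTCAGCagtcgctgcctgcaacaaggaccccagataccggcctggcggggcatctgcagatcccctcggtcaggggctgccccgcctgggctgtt
FTL downstream, 4653 bp after the start: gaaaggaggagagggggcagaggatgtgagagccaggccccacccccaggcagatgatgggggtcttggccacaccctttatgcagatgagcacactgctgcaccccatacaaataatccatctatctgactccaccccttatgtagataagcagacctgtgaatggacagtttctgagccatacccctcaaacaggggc

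The upstream summit lay 6 bp from an ARE core that reads TGACTCAGC, which also holds the letters of the AP-1 site (TGANTCA). The peak had 23 fragments (14.6 to 34.5) where 5.00 were expected, and the start of the lncRNA ENSG00000267898 lay inside it. No NRF2 peak was called there. The only NRF2 peak of FTL sat 10416 bp upstream, 18 bp from the start of BAX, an apoptosis gene, with 12 fragments (96.8%, near the bottom of the list). The number of fragments expected at FTL, 4.21 to 7.22 over its BRG1 peaks, was above that of every other member's BRG1 peaks, which ran from 0.271 to 2.92. Ranked by fold instead of q-value, the FTL peaks moved down, from 23.2% to 55.9% at the start and from 1.93% to 10.1% downstream. The cause of the high expected number was not tested. GENCODE names 25 FTH1 and 16 FTL pseudogenes and the authors kept uniquely mapped reads, so reads from exons like those copies may be missing.

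NCOA4, the receptor that takes ferritin to the lysosome, had the strongest start-site peaks of the 10 members in all 3 lists. The gene lies on the minus strand (chr10:46005088-46030623) and had peaks at 2 of its starts. At the MANE Select start BRG1 had 45 fragments (32.8 to 60.2, 17.6-fold, 2.81%), NRF2 had 69 fragments (53.7 to 87.3, 7.93-fold, 3.38%) and ACTL6A had 11 (5.49 to 19.7, 7.91-fold, 14.3%). The summits of BRG1 and NRF2 were 1 bp apart, and the ACTL6A summit lay 113 bp from that of BRG1, 79 bp upstream of the start. The NRF2 peak placed NCOA4 51st among the 5541 genes with an NRF2 peak at a TSS, within the first 0.920% of them. Its 69 fragments were the most of any member in the NRF2 list, and its interval did not meet that of IREB2, the next in order. The number expected there, 7.83, was also the highest among the members' NRF2 peaks, beside 4.85 at the IREB2 start. Ranked by fold, this NCOA4 peak stood at 6.47% of the list.

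A second start of NCOA4, in intron 1 of the MANE Select transcript, carried BRG1 and NRF2 but no ACTL6A peak. BRG1 had 48 fragments there (35.4 to 63.6) where 1.60 were expected, an 18.9-fold enrichment and the highest fold among the 36 BRG1 peaks of the members (2.20%). NRF2 had 35 fragments (24.4 to 48.7, 6.94-fold, 9.86%), and the 2 summits were 3 bp apart, 7237 and 7240 bp past the MANE Select start. This site held an ARE core, TGACCTGGC, 42 bp from the NRF2 summit, whereas the peaks at the MANE Select start held none. The other BRG1 peak, in exon 7, had 3 fragments and ranked at 95.7%.

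The uptake genes differed from one another in which lists reached their starts. TFRC, the transferrin receptor (chr3:196012511-196082153, minus strand), had BRG1 with 14 fragments (7.65 to 23.5, 7.77-fold, 29.6%) and NRF2 with 14 fragments (7.65 to 23.5, 4.79-fold, 54.8%) at its start. The NRF2 peak lay wholly within the BRG1 peak, over 379 bp, with summits 128 bp apart. ACTL6A had no peak at that start and 1 in intron 7, with 3 fragments (86.2%). Another BRG1 peak in intron 16 ranked at 26.8% and had 11 fragments where 0.364 were expected. One in exon 10 ranked at 79.9%, and 2 beyond the end of the gene ranked at 26.9% and 87.3%.

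STEAP3, the endosomal ferrireductase (chr2:119223831-119265652, plus strand), had the weakest BRG1 start-site peak by rank, with 7 fragments (2.81 to 14.4, 4.43-fold, 70.7%). Its strongest BRG1 peak lay in intron 4, 29175 bp past the start, with 16 fragments (9.15 to 26.0, 8.27-fold, 25.9%). The 4 others, in introns 1 and 2 and the 3′ UTR, had 4 to 8 fragments each, and the one 1387 bp past the start held an ARE core, TGACCTGGC, 277 bp from its summit. ACTL6A had 1 peak in intron 3 with 4 fragments (94.6%). NRF2 had none over the gene or its flanks.

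SLC11A2, the divalent metal transporter DMT1 (chr12:50979401-51028566, minus strand), had exactly 1 peak in each antibody list, all at the MANE Select start. BRG1 had 39 fragments (27.7 to 53.3, 12.4-fold, 6.41%), NRF2 had 22 (13.8 to 33.3, 6.16-fold, 22.2%) and ACTL6A had 10 (4.80 to 18.4, 7.44-fold, 16.9%). The whole ACTL6A peak of 135 bp lay inside both others. The BRG1 and NRF2 peaks held an ARE core, TGACCTTGC, 90 bp past the start, which was 202 bp from the NRF2 summit and 156 bp from that of BRG1.

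The export gene had the fewest peaks of the set. SLC40A1 encodes ferroportin, the cell's iron exporter (chr2:189560590-189583758, minus strand). Its single peak was BRG1, 245 bp wide and 71 bp upstream of the MANE Select start, with 6 fragments (2.20 to 13.1) where 0.271 were expected (5.51-fold, 50.1%). ACTL6A and NRF2 had none over the gene or 10 kb to either side.

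HMOX1 encodes heme oxygenase 1, which frees iron from heme (chr22:35380361-35394214, plus strand), and with 11 peaks it had the most of any member: 6 of BRG1, 3 of ACTL6A and 2 of NRF2. At its start the 3 lists met only in part. The NRF2 summit lay 105 bp upstream with 17 fragments (9.90 to 27.2, 3.65-fold, 70.0%), BRG1 lay 181 bp downstream with 17 fragments (9.90 to 27.2, 7.89-fold, 26.3%), and ACTL6A lay 340 bp downstream with 6 fragments (2.20 to 13.1, 5.09-fold, 42.8%). NRF2 and BRG1 shared 357 bp and BRG1 and ACTL6A 70 bp, whereas the NRF2 and ACTL6A peaks did not touch. None of these held an ARE core.

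Of the 6 ARE cores in HMOX1 peaks, 4 lay in an upstream element about 9 kb before the start, found in the BRG1 and NRF2 lists and in no ACTL6A peak. BRG1 covered 643 bp with 20 fragments (12.2 to 30.9, 7.62-fold, 24.4%), and the whole 353 bp of the NRF2 peak lay inside it, with 19 fragments (11.4 to 29.7, 4.54-fold, 44.6%). This NRF2 peak ranked above the one at the HMOX1 start, and their intervals overlapped. The BRG1 peak held 4 ARE cores and the NRF2 peak 3 of them, in a run of 96 bp in which each core began 29 bp after the one before. Only 62 of the 48793 BRG1 peaks (0.127%) held 4 or more cores and 95 of the 9045 NRF2 peaks (1.05%) held 3 or more, a count made after this run had been seen. The cores lay to the gene's side of both summits, 139 to 197 bp from that of NRF2 and 265 to 352 bp from that of BRG1, so the 200 bp around either summit held none.

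The run is shown on the minus strand of GRCh38, chr22:35371959-35372174, where the cores read in the usual direction, with the 4 cores in capitals. The stretch starts at the first base of the lncRNA ENSG00000282602, which is on the plus strand, and runs upstream of it, away from its body.
HMOX1 upstream run: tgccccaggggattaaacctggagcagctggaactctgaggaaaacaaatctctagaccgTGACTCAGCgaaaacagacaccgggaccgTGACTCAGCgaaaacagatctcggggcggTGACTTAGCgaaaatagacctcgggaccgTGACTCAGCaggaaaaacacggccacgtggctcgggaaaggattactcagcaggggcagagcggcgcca

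Of the 4 cores, 3 read TGACTCAGC, the same letters as at FTL, and 1 read TGACTTAGC. As at FTL, those 3 also hold the letters of the AP-1 site. All 4 were preceded by G, whereas over the 11 distinct core sites inside members' peaks 8 were preceded by A or G. HMOX1 held 6 of the 11 sites, and FTL, NCOA4, STEAP3, SLC11A2 and IREB2 held 1 each. FTH1, TFRC, SLC40A1 and ACO1 had no core in any peak.

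**Figure D2:**
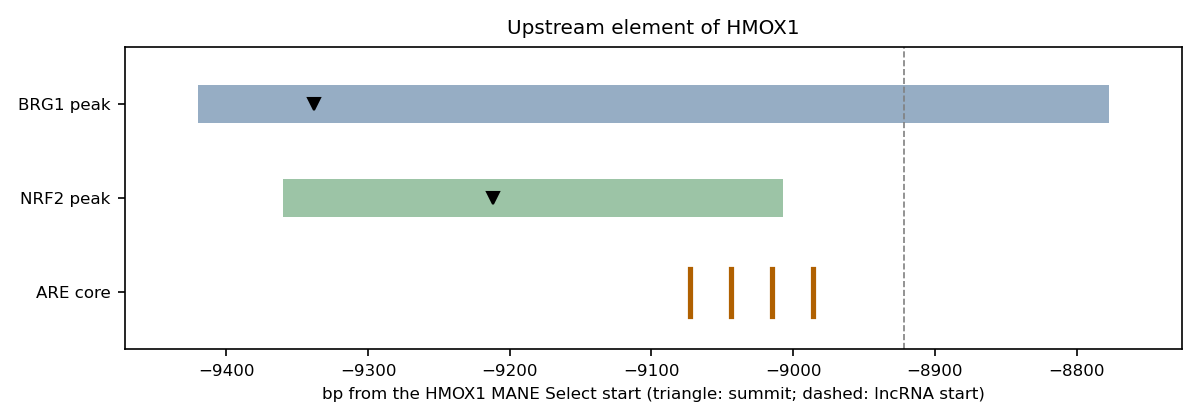
The upstream element of HMOX1, with distance in bp from the MANE Select start on the x axis, the BRG1 and NRF2 peaks as bars with a triangle at each summit, and ARE cores as ticks. The 4 cores stand 29 bp apart, all within the BRG1 peak and 3 within the NRF2 peak.

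Downstream of HMOX1 the strongest peak belonged to the start of the next gene, MCM5, a subunit of the replicative helicase. BRG1 had 33 fragments there (22.7 to 46.3, 13.9-fold, 6.96%), and an ACTL6A peak of 201 bp with 7 fragments (31.1%) lay wholly within the BRG1 peak. A core reading TGACCTCGC lay 2 bp from the BRG1 summit, and NRF2 had no peak there. A weaker BRG1 peak followed 19468 bp past the HMOX1 start (71.7%). In the gene itself, BRG1 had a peak in intron 2 with a core, TGACTGTGC, 32 bp from its summit (13 fragments, 39.7%), and BRG1 and ACTL6A had separate weak peaks in exon 3 (72.6% and 63.3%).

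The interval that BRG1 and ACTL6A shared downstream of HMOX1 is printed on the minus strand, chr22:35399867-35400067 of GRCh38, with the core in capitals, as the core closest to any summit.
HMOX1 downstream, shared by BRG1 and ACTL6A: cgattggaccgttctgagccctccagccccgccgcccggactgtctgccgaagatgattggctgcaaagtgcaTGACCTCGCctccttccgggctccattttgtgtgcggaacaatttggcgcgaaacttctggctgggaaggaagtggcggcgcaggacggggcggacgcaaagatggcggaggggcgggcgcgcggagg

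The genes of the 2 iron regulatory proteins differed at their starts. ACO1 encodes cytosolic aconitase, which becomes IRP1 when it loses its iron-sulfur cluster (chr9:32384603-32454769, plus strand). It had 1 BRG1 and 1 NRF2 peak, both at the start, with summits 16 bp apart and the NRF2 peak of 366 bp inside that of BRG1. BRG1 had 24 fragments (15.4 to 35.7) where 0.9795 were expected (12.6-fold, 11.4%), and NRF2 had 12 (6.20 to 21.0, 4.45-fold, 67.7%). ACTL6A had none over its 70167 bp or the flanks.

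IREB2, which encodes IRP2 (chr15:78437431-78501453, plus strand), had all 3 antibodies at its start, with summits within 6 bp of each other and 112 to 118 bp upstream of the MANE Select start. NRF2 had 36 fragments (25.2 to 49.8, 6.33-fold, 11.1%) in a peak of 1166 bp, the widest of the 55, which also covered part of a second BRG1 peak 400 bp past the start. BRG1 had 13 fragments (6.92 to 22.2, 7.28-fold, 32.7%) and ACTL6A had 9 (4.12 to 17.1, 6.76-fold, 21.3%). IREB2 was thus the second gene of the set by NRF2 rank and the eighth by BRG1 rank. A BRG1 peak in intron 10 had 4 fragments (79.9%).

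About 69 kb past the IREB2 start all 3 lists met again, at the start of HYKK, the hydroxylysine kinase gene, which lies beyond the end of IREB2. BRG1 had 27 fragments there (17.8 to 39.3, 13.8%), ACTL6A had 10 (4.80 to 18.4, 22.5%) and NRF2 had 16 (9.15 to 26.0, 50.6%). A core reading TGACTGGGC lay 9 bp from the NRF2 summit.

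The stretches below were covered by all 3 antibodies and are given to show what the shared sites hold. Each is the part of the shared interval that lies in no annotated UTR, in the direction of the member's transcription. In the 3 start-site stretches capitals mark the GC box, GGGCGG or its reverse complement, the site of SP1, and in the HYKK stretch the ARE core. They are chr10:46030624-46030759 (minus strand), chr12:51026401-51026519 (minus), chr15:78438027-78438175 (plus) and chr15:78507380-78507563 (plus) of GRCh38.
NCOA4 start: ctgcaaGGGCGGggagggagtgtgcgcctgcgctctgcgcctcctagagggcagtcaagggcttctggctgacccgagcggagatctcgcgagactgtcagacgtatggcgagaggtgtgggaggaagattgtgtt
SLC11A2 start: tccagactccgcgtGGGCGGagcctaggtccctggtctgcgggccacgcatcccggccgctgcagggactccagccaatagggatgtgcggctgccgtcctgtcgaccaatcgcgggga
IREB2 start: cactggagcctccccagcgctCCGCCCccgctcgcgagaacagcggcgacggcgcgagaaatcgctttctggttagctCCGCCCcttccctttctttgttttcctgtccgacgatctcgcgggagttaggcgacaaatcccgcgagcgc
HYKK start, downstream of IREB2: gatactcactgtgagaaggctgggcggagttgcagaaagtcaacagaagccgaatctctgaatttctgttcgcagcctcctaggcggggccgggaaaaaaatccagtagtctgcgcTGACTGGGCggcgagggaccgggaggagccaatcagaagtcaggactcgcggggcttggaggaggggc

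None of the 3 start-site stretches held an ARE core. NCOA4 and SLC11A2 had 1 GC box each and IREB2 had 2. The HYKK stretch held 2 as well, which are not marked in it. A GC box stood in 8 of 10 NRF2 summit windows of 200 bp over the members, against 34.4% of all NRF2 summit windows. For BRG1 it was 12 of 36 against 27.4%, and for ACTL6A 5 of 9 against 22.9%. These shares are not matched for place. At a coding TSS lay 9 of the 10 NRF2, 18 of the 36 BRG1 and 6 of the 9 ACTL6A peaks of the members. Of all peaks of these lists, 52.4%, 31.1% and 30.3% did. The GC box was added after values had been seen. In the RefSeq promoter sequences of GRCh38.p14, from 250 bases before to 50 after each start, 8 members had an entry, all but FTH1 and HMOX1. All 8 held a GC box, as 59.2% of 15307 coding genes did, and none held an ARE core, which 14.3% did. The motifs are matches of letters and were not tested as sites of any factor.

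In the 200 bp around the summit the ARE core was found for 2 of the 10 NRF2 peaks of the members (NCOA4 at its second start and HYKK), 6 of the 36 BRG1 peaks and 1 of the 9 ACTL6A peaks. For 1 of the 6, the BRG1 peak in the 3′ UTR of STEAP3, the core lay in that window but outside the peak, so it is not among the 11 sites. Over each whole list the shares were 9.66% (Wilson 95% interval 9.07% to 10.3%) for NRF2, 11.5% (11.2% to 11.8%) for BRG1, 9.88% (9.51% to 10.3%) for ACTL6A and 5.56% (4.58% to 6.73%) for IgG 2. Over the whole peak the members' counts were 4 of 10, 8 of 36 and 2 of 9, beside 22.7%, 16.1% and 11.9% of all peaks. A site that lay under peaks of several lists was counted in each.

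Peaks of the members overlapped between lists as follows. All 10 NRF2 peaks shared bases with a BRG1 peak, where 66.2% of all NRF2 peaks did. Of these 9 lay at a coding TSS, their own or a neighbour's, where 94.9% of all NRF2 peaks overlapped BRG1, and the other was the HMOX1 upstream element, in a class where 34.6% did. For ACTL6A, 6 of 9 peaks overlapped BRG1, against 49.8% of all its peaks. The 6 were those at a coding TSS, where 87.1% of all did, and the 3 elsewhere, in TFRC, STEAP3 and HMOX1, did not, where 33.5% did. NRF2 and ACTL6A overlapped at 4 of 10 NRF2 peaks, against 49.8% of all, at the starts of NCOA4, SLC11A2, IREB2 and HYKK. At a coding TSS this was 4 of 9, where 70% of all NRF2 peaks overlapped ACTL6A, and elsewhere 0 of 1, where 27.6% did.

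Ordered by fragments at their strongest start-site summit, the members ran in BRG1 from NCOA4 (48), SLC11A2 (39), FTL (38), FTH1 (32) and ACO1 (24) to HMOX1 (17), TFRC (14), IREB2 (13), STEAP3 (7) and SLC40A1 (6). The intervals of every pair of neighbours in that order overlapped, whereas those of some genes farther apart, such as NCOA4 and HMOX1, did not. An overlap does not show that a difference is within counting error. In ACTL6A the order was NCOA4 (11), SLC11A2 (10), IREB2 (9) and HMOX1 (6), with all neighbours overlapping. In NRF2 it was NCOA4 (69), IREB2 (36), SLC11A2 (22), HMOX1 (17), TFRC (14) and ACO1 (12), and NCOA4 alone stood apart from the next. The number expected was highest at NCOA4 as well (7.83). The summit is where a peak is highest, so these numbers lean upwards, and they were not scaled to the locus.

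Among the genes with a peak at a TSS, the members' median place was 46.7% from the top for ACTL6A, 61.0% for BRG1 and 44.9% for NRF2, so as a set they were not at the head of any list. The next ranks take the members' peaks at a coding TSS, their own or a neighbour's. Their median was 50.6% for NRF2 beside 44.03% for all such NRF2 peaks, and 24.7% beside 27.1% for BRG1. For ACTL6A it was 21.9% beside 24.6%. Away from coding starts the 18 BRG1 peaks of the members had a median rank of 52.4%, beside 60.5% for all.

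The remaining pathway was read from 32 other iron genes, by role. At a TSS, BRG1 had a peak for 25 of them, and ACTL6A and NRF2 for 12 each. Over all protein-coding genes the shares were 63.5% for BRG1, 38.5% for ACTL6A and 28.1% for NRF2. Over gene and flanks the counts were 29 for BRG1, 22 for ACTL6A and 15 for NRF2, beside 82.7%, 66.9% and 41.1% of all genes. All 3 antibodies had a peak at a TSS of 9, among them 4 of the 6 mitochondrial iron genes and 3 of the 8 heme genes. Over all genes 22.1% had all 3. None of the 3 had a peak at a TSS of 6 of the 32, as for 6779 of the 19689 protein-coding genes. Of the 9 uptake genes, 6 had BRG1, 1 ACTL6A and 2 NRF2 at a TSS, and of the 3 export genes 2 had BRG1 and none had ACTL6A or NRF2. The IgG lists had none over any of the 32.

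BLVRB, a biliverdin reductase, stood at 0.508% of the BRG1 list, 4.15% of ACTL6A and 24.5% of NRF2. FBXL5, the iron-sensing subunit of the ligase that marks IRP2 for destruction, stood at 2.45% of the ACTL6A list and 3.36% of NRF2, next to NCOA4. SLC25A28, the mitochondrial iron importer mitoferrin 2, was among the 3 strongest of these 32 genes in each list, at 7.45%, 4.73% and 7.27% for ACTL6A, BRG1 and NRF2. HMOX2, the constitutive heme oxygenase, stood at 5.95% of the BRG1 list.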

How the data were processed

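CUT&Tag libraries of SNU638 cells were analysed as deposited peak lists, 2 of them for IgG and 1 for each of ACTL6A, BRG1 and NRF2. The authors sequenced paired-end reads, trimmed them with fastp 0.23.0, mapped them to hg38 with BWA, kept uniquely mapped reads and ran MACS2 with a q-value cutoff of 0.05. The control given to the caller is not given in the sources used here. Each deposited peak has a fold enrichment, which is a ratio with a pseudocount of 1 on both numbers, and -log10 p and q-values from the caller. Read depth is not in the lists.

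The members and the gene lists were chosen with earlier results of these data known. Named genes were the 10 members, neighbours whose TSS lay within 1 kb of a member's peak or whose body covered its summit, and the 3 other iron genes with the strongest TSS peak in each antibody list. Genes whose body covered a summit were added after values had been seen, as were the GC box and the ETS site (CCGGAAG). The ETS site stood in 1 of 36 BRG1, 1 of 9 ACTL6A and 0 of 10 NRF2 summit windows of the members. Over each whole list it stood in 3.70%, 4.29% and 6.29% of them.

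TSS were 5′ ends of protein-coding transcripts of GENCODE release 44. Peaks overlapped at 1 bp or more. Ranks used the -log10 q, with ties averaged. Fragments at a summit were the single whole number that gave both the deposited fold and -log10 p within 0.001, found for 98.9% to 100% of the peaks of each list. PCR reads carry no molecular identifiers, so intervals cover counting error only. No test was made, since each antibody had 1 library. The routines were tested on simulated data. The tools were pandas 2.3.3, NumPy 2.4.6, SciPy 1.17.1 and matplotlib 3.10.9 under Python 3.11.15.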

Additional observations from a re-analysis of the deposited data

How the results depend on the processing

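No paired analysis was possible because no antibody was replicated and no result came from a test. Over all peaks, 6 members had an ACTL6A peak over gene and flanks, 4 at a TSS, from 9 peaks, beside 10, 10 and 36 for BRG1 and 7, 6 and 10 for NRF2. Keeping peaks whose -log10 q was 5 or more, ACTL6A fell to 3 members over gene and flanks and 4 peaks, BRG1 to 23 peaks, and NRF2 to 4 members, 3 at a TSS (NCOA4, SLC11A2 and IREB2) and 6 peaks, all 6 overlapping BRG1. At a TSS the members were then 3 for ACTL6A, 8 for BRG1 and 3 for NRF2, beside 23.7%, 55.4% and 17.2% of all genes. With the highest 5000 peaks of each list, ACTL6A kept 2 members, both at a TSS, and 2 peaks, BRG1 kept 4 members, 2 at a TSS, and 5 peaks, and the overlaps fell to 2 (ACTL6A with BRG1), 3 (NRF2 with BRG1) and 2 (NRF2 with ACTL6A). At a TSS the members were then 2 for ACTL6A, 2 for BRG1 and 4 for NRF2, beside 19.4%, 19.0% and 18.5% of all genes. The BRG1 share of 10 of 10 members against 63.5% thus did not hold among its 5000 strongest peaks. This cut was unequal, since 5000 is a smaller part of the 48793 BRG1 peaks than of the 23917 ACTL6A or 9045 NRF2 peaks. NCOA4 and SLC11A2 had a peak at a TSS in all 3 lists under both thresholds. Where 50% of both peaks had to be shared, 3 ACTL6A peaks overlapped BRG1 and 0 NRF2 peaks overlapped ACTL6A, in place of 6 and 4. With summits within 100 bp the counts were 2 for ACTL6A with BRG1, 6 for NRF2 with BRG1 and 2 for NRF2 with ACTL6A. The ARE core was found in 2 ACTL6A and 4 NRF2 peaks over the whole peak, and the looser TGANNNNGC in 2 ACTL6A and 12 BRG1 summit windows. These 25 of 94 alternative counts moved by more than 1.5 times, 21 downwards with fewer peaks or a stricter overlap and 4 upwards with a wider window or looser pattern, and the cause was not tested further. The other 69, which changed the flank, the distance to a TSS, the transcript set, the summit rule or the peaks shared with IgG among others, did not. Leaving out peaks shared with IgG 1, IgG 2 or both could change nothing, since 0 member peaks overlapped either list. Of the 55 peak ranks, 11 moved by more than 1.5 times when ranked by fold enrichment, 5 of them at FTL.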
